A study of Mus musculus with 8 samples.

Results

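The genes described here are 10 genes of the fast-twitch contractile apparatus, namely *Myh2*, *Myh1*, *Myh4*, *Tnnt3*, *Tnni2*, *Tnnc2*, *Mylpf*, *Myl1*, *Actn3* and *Pvalb*. They were chosen by symbol from the 27041 rows of a table of RNA-seq counts, and each symbol matched 1 row. No cut on levels was used, but these genes and the lists below were chosen with earlier results of these data known. Counts over these genes and lists are thus descriptions beside the shares of all genes. All 10 had a mean count over 50 in these libraries, the condition for being tested, which 11364 genes met. The study compared muscles of 9-week-old male C57BL/6J mice that have or lack LSD1 in myofibers. LSD1, encoded by *Kdm1a*, is a histone demethylase. Mice of both groups carried LSD1 alleles with LoxP sites on both sides of exon 1 (LSD1 L2/L2). Ctrl mice carried these alleles only, and LSD1skm-/- mice also carried HSA-Cre, a Cre recombinase driven by the human skeletal actin promoter. The Cre acts in myofibers from development onwards and is not inducible, and the other cells of the muscle keep the gene. The labels name the tissue skeletal muscle and the study's methods name the gastrocnemius, a mostly fast muscle of the calf. The labels describe 8 libraries, 4 in each group. Counts of 4 Ctrl and 2 LSD1skm-/- libraries were analysed, and LSD1skm-/- replicates 3 and 4 were not analysed here. Each library held between 30654828 and 41278769 counts. The labels do not say that the samples came from separate mice, and the p-values measure the spread between these libraries.

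*Kdm1a* did not follow the labels in every library. Its level was 22.9, 21.9, 28.0 and 3.65 CPM (read counts relative to library size, scaled by edgeR's TMM factors) in the 4 Ctrl libraries taken in order of replicate number, against 2.95 and 3.47 CPM for LSD1skm-/- replicates 1 and 2. The library labelled Ctrl replicate 4 was thus near the LSD1skm-/- libraries. Over all tested genes it also differed least from LSD1skm-/- replicate 1 (chi-square of 32.9 per degree of freedom) and more from Ctrl replicates 1 to 3 (67.8 to 95.4). The labels were kept, and results are given with all 6 libraries and again without that library. Leaving it out narrows the Ctrl spread of genes for which it lay near the LSD1skm-/- libraries. For such genes the p-values without it are lower for that reason and serve as description only. With all 6 libraries the log2 fold change of *Kdm1a* was -2.56 (SE 0.74, adjusted p = 0.557, edgeR). Without that library it was -2.91 (SE 0.17), given with no test because the library was set apart by this level.

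Skeletal muscle fibers shorten when myosin heads pull on actin filaments. Before that, calcium binds troponin C and the troponin complex lets tropomyosin move off the actin sites. Most of these proteins have separate genes for fast and slow fibers. Fast fibers of the mouse are classed by their myosin heavy chain. *Myh2* encodes the chain of oxidative type IIa fibers, *Myh1* that of type IIx fibers and *Myh4* that of the glycolytic, fastest type IIb fibers. *Tnnt3*, *Tnni2* and *Tnnc2* encode the fast troponins T, I and C, *Mylpf* and *Myl1* the fast regulatory and alkali myosin light chains, *Actn3* the alpha-actinin of the fast-fiber Z-disc, and *Pvalb* parvalbumin, a calcium buffer that speeds relaxation. In whole muscle, fewer cells of a type and less RNA per cell cannot be told apart.

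The heavy chain genes lie side by side on the plus strand of chromosome 11 (GRCm38, the build also called mm10), in the order *Myh2* (67171027 to 67197517), *Myh1* (67200052 to 67224575) and *Myh4* (67238029 to 67260446). The gaps between them measured 2.5 and 13.5 kb and the whole stretch 89.4 kb. RefSeq promoter sequences (assembly GRCm38.p6) were matched for 7 of the 10 genes, with 8 entries because *Pvalb* has a pair of start sites. The upstream sequences of the heavy chain genes are shown because they hold a common run of bases. They are chr11:67170777-67171026, chr11:67199852-67200051 and chr11:67237562-67237811, all plus strand, and the capitals mark the longest run shared by all 3.
Myh2: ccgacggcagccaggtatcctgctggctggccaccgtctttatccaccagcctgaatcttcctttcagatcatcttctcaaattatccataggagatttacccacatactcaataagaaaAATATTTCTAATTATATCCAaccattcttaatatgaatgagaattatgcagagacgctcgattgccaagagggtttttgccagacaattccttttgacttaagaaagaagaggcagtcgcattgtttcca
Myh1: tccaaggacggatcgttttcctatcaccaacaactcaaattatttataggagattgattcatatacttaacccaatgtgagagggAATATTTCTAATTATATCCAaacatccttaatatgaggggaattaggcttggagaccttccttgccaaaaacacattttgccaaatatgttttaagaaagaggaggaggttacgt
Myh4: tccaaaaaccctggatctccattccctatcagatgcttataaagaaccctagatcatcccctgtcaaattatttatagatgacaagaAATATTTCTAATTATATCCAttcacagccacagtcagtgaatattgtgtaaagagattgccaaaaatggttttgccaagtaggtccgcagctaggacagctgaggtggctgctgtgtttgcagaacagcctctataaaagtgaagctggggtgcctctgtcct

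The shared run measured 20 bases and began 130, 165 and 163 bases before the RefSeq start of *Myh2*, *Myh1* and *Myh4*, respectively. Of 32851 mouse promoters, 3 (0.00913%) held it in the 250 bases before the start, and these were the promoters of the heavy chain genes. Short motifs were also searched, on both strands of the same windows, and some of them can overlap. The letters of the TATA box, TATAAA, were found in 3 of the 8 entries, those of *Myh1*, *Myh4* and *Myl1*, against 12.4% of all promoters. No distance from the start was required. The match farthest from the start lay 208, 213 and 95 bases before it, and the 3 entries held 2, 3 and 1 matches, in that order. The E-box, CANNTG, was found in 5 entries and 66.2% of all promoters. A half-site of the glucocorticoid receptor, AGAACA, was found in those of *Myh4* and *Mylpf* and in 16.1% of all promoters. The MEF2 motif, read only as CTA and TAG with any 4 bases between them, was in none of the 8 entries and in 3.2% of all promoters. Forms that begin with TTA, such as ttatttatag in the *Myh1* and *Myh4* sequences above, were not searched. Absence of a MEF2 site thus cannot be read from this. The core of the NRF1 motif, TGCGCA, was also in none of the 8 entries and in 6.43% of all promoters. A match of letters is a description and no evidence that a factor binds.

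*Myh4*, the type IIb chain, had the largest difference of the 10 genes. Its level was 52775, 51209, 56932 and 39074 CPM in the Ctrl libraries, in the same order, and 39698 and 35159.8 CPM in the LSD1skm-/- libraries. The groups overlapped only through the library labelled Ctrl replicate 4, whose value lay between those of the LSD1skm-/- libraries. The mean was 49997 ± 7672 CPM (SD, n = 4) in Ctrl and 37429 ± 3209 CPM (SD, n = 2) in LSD1skm-/- muscle. With all 6 libraries the log2 fold change was -0.42 (SE 0.17, unadjusted p = 0.0408, adjusted p = 0.557, edgeR), which does not pass the threshold of 0.05 after adjustment. Without the library labelled Ctrl replicate 4 it was -0.52 (SE 0.13, unadjusted p = 0.00438, adjusted p = 0.0662, edgeR), again above the threshold. The call without that library depended on the tool, since the adjusted p was 0.000182 with DESeq2 and 0.0480 with edgeR's robust dispersion, settings under which 9.29% and 5.75% of all genes passed.

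*Myh1*, the type IIx chain, was at 3361, 2407, 2390.4 and 2316 CPM in the Ctrl libraries and at 2918 and 2957 CPM in the LSD1skm-/- libraries. Both LSD1skm-/- values lay above 3 of the Ctrl values and below that of Ctrl replicate 1, so the groups overlapped. The log2 fold change was 0.17 (SE 0.17, adjusted p = 0.760, edgeR), and 0.11 without the library labelled Ctrl replicate 4.

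*Myh2*, the type IIa chain, was at 1753, 1199, 1392 and 1534 CPM in the Ctrl libraries and at 1386 and 1717 CPM in the LSD1skm-/- libraries. Both LSD1skm-/- values lay inside the Ctrl range. The log2 fold change was 0.08 (SE 0.17, adjusted p = 0.890, edgeR), and 0.10 without the library labelled Ctrl replicate 4. The transcripts of the heavy chain genes are of like length (6083, 6081 and 6016 bases for *Myh2*, *Myh1* and *Myh4*).

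**Figure D1:**
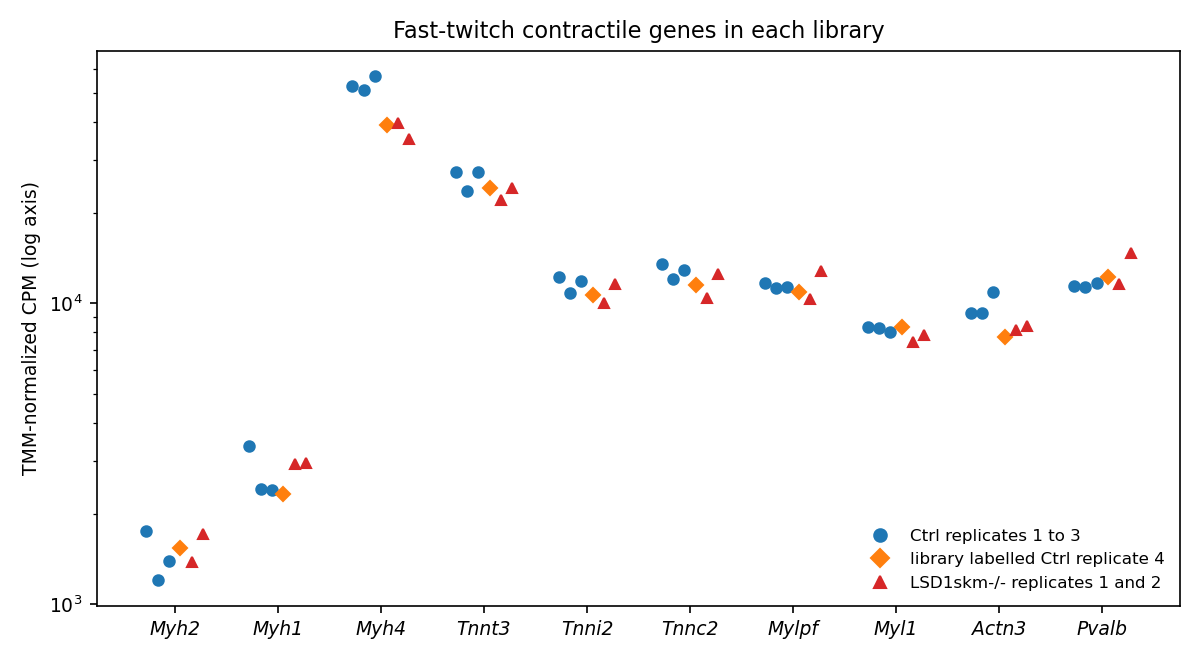
TMM-scaled CPM on a log axis for each of the 10 fast-twitch genes in each library; circles are Ctrl replicates 1 to 3, the diamond is the library labelled Ctrl replicate 4 and triangles are the LSD1skm-/- libraries. *Myh4* is at 51209 to 56932 CPM in Ctrl replicates 1 to 3 and at 35159.8 to 39698 CPM in the other 3 libraries, while most other genes show intermixed symbols.

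The balance among the fast heavy chains was read as the share of each in their summed reads per kilobase of transcript, a value that does not depend on scaling between libraries. *Myh4* held 91.3%, 93.5%, 93.8% and 91.1% in the Ctrl libraries and 90.3% and 88.4% in the LSD1skm-/- libraries. Both LSD1skm-/- libraries lay below every Ctrl library, the library labelled Ctrl replicate 4 included. The mean share was 92.4% ± 1.44 (SD, n = 4) against 89.3% ± 1.37 (SD, n = 2), a difference of -3.08 percentage points (exact permutation test, two-sided, p = 0.133, adjusted over the 3 shares 0.200).

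*Myh1* held 5.75%, 4.35%, 3.90% and 5.34% in the Ctrl libraries and 6.57% and 7.35% in the LSD1skm-/- libraries, again without overlap. Its share was 2.13 points higher in LSD1skm-/- muscle (exact permutation p = 0.133). *Myh2* held 3.0%, 2.17%, 2.27% and 3.54% against 3.12% and 4.27%, where the groups overlapped through the library labelled Ctrl replicate 4 (difference of 0.95 points, exact permutation p = 0.200).

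**Figure D2:**
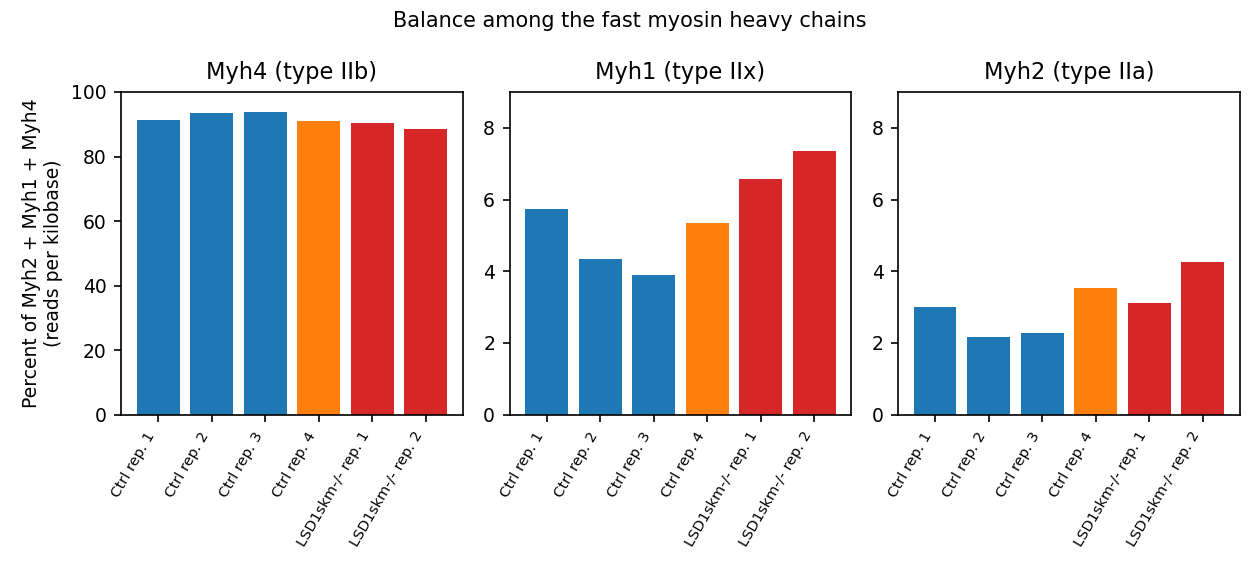
Share of *Myh4*, *Myh1* and *Myh2* in the summed reads per kilobase of the 3 genes, in percent, for each library (1 bar each; the axis runs to 100 for *Myh4* and to 9 for the others). The LSD1skm-/- bars of *Myh4* are the lowest (90.3% and 88.4%) and those of *Myh1* the highest (6.57% and 7.35%).

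As a ratio, *Myh1* over *Myh4* was 1.51-fold higher in LSD1skm-/- muscle (log2 difference of 0.59), with no overlap between the groups (exact permutation p = 0.133, adjusted over the 3 ratios 0.300). *Myh2* over *Myh4* was 1.40-fold higher (log2 difference of 0.49) with overlapping groups (exact permutation p = 0.200, adjusted 0.300). *Myh2* over *Myh1* differed by -0.10 (exact permutation p = 0.533), less than the spread between the Ctrl libraries (SD 0.18). The exact test cannot give a p below 0.0667 with 4 against 2 libraries, or below 0.1 with 3 against 2. Without the library labelled Ctrl replicate 4 the log2 differences were 0.65, 0.63 and -0.021 for *Myh1*/*Myh4*, *Myh2*/*Myh4* and *Myh2*/*Myh1*, and the groups of the ratios over *Myh4* did not overlap (exact permutation p = 0.200 for each). The counting leaves some doubt about how reads were divided, since 32.1% of the 50-base stretches of the *Myh1* transcript, 28.87% of those of *Myh2* and 18.9% of those of *Myh4* also occur in another gene and the study kept uniquely aligned reads. Division by the stretches found in no other gene gave a difference in the *Myh4* share of -3.51 points.

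*Tnnt3*, which ties troponin to tropomyosin, was at 27346, 23653, 27258 and 24151 CPM in the Ctrl libraries and at 22041 and 24102 CPM in the LSD1skm-/- libraries. The LSD1skm-/- values were low but reached into the Ctrl range, and the log2 fold change was -0.15 (SE 0.12, adjusted p = 0.694, edgeR). *Tnni2*, the inhibitory subunit, lay at 10629 to 12267 CPM in Ctrl and at 10017 and 11631 CPM in LSD1skm-/- muscle (log2 fold change of -0.07, SE 0.12). *Tnnc2*, the calcium-binding subunit, lay at 11484 to 13469 CPM and at 10420.2 and 12541 CPM (-0.12, SE 0.13). In all 3 genes LSD1skm-/- replicate 1 was the lowest library and replicate 2 lay inside the Ctrl range. *Tnnc2* overlaps *Ube2c* on the other strand, and 54.99% of its 50-base stretches also occur in that gene. The kit marks strand, but the use of strand in counting is not given in the sources used here.

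*Mylpf*, the regulatory light chain, was at 11712, 11264, 11362 and 10924 CPM in the Ctrl libraries and at 10359.8 and 12788 CPM in the LSD1skm-/- libraries. The LSD1skm-/- libraries were the lowest and the highest of the 6, and the log2 fold change was 0.03 (SE 0.12, adjusted p = 0.943, edgeR). *Myl1*, the alkali light chain, was at 8320.1, 8295, 8028 and 8349 CPM in the Ctrl libraries and at 7453 and 7830.3 CPM in the LSD1skm-/- libraries. Here the groups did not overlap with all 6 libraries, though the difference was small (-0.11, SE 0.10, adjusted p = 0.729, edgeR). Of the 50-base stretches of *Myl1*, 23.43% also occur in the pseudogene *Mylf-ps*.

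*Actn3* was at 9317, 9253, 10888 and 7704 CPM in the Ctrl libraries and at 8133 and 8378 CPM in the LSD1skm-/- libraries. As for *Myh4*, the groups overlapped only through the library labelled Ctrl replicate 4, which was the lowest of all. The log2 fold change was -0.17 (SE 0.15, adjusted p = 0.716, edgeR) and, without that library, -0.25 (SE 0.12, adjusted p = 0.320, edgeR).

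*Pvalb* was at 11373, 11285, 11642 and 12270.2 CPM in the Ctrl libraries and at 11622 and 14748 CPM in the LSD1skm-/- libraries. LSD1skm-/- replicate 2 was the highest library and replicate 1 lay inside the Ctrl range. The log2 fold change was 0.18 (SE 0.13, adjusted p = 0.659, edgeR).

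Per length, the fast genes kept a wide order of levels. Over the 6 libraries the mean was 22946 CPM per kilobase for *Tnnt3*, 17334 for *Tnnc2*, 14885 for *Mylpf*, 14593 for *Tnni2* and 12443 for *Pvalb*. *Myh4* and *Myl1* followed at 7614 and 7436 CPM per kilobase and *Actn3* at 3099. *Myh1* and *Myh2* stood at 448 and 246 CPM per kilobase. Over the libraries, the ranges of *Tnnc2* and *Mylpf*, *Mylpf* and *Tnni2*, *Tnni2* and *Pvalb*, and *Myh4* and *Myl1* overlapped, and those of the other neighbours in the order did not.

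Of the 10 genes, 4 were higher and 6 lower in LSD1skm-/- muscle. The median of their log2 fold changes was -0.09, beside -0.0077 for all genes tested, and it was 0.014 without LSD1skm-/- replicate 1 and -0.17 without LSD1skm-/- replicate 2. With all 6 libraries 0 of 10 passed the adjusted threshold in edgeR, as did 0% of all genes (0 of 11364). At an unadjusted p under 0.05, 1 of 10 (*Myh4*, lower) stood beside 8.9% of all genes in either direction and 3.88% lower, and DESeq2 called 46 of all genes after adjustment. Without the library labelled Ctrl replicate 4 the list had a median of -0.10, and again 1 of 10 was under the unadjusted threshold, beside 20.2% of all genes in either direction and 7.72% lower. After adjustment 0 of 10 passed there, beside 5.39% of all genes (612). Of the 2292 genes under the unadjusted threshold without that library, 877 were lower, and with library-size scaling 518 of 2335. The groups did not overlap for 1 of 10 genes with all libraries (*Myl1*, lower), beside 17.8% of all genes in either direction and 8.02% lower. Without that library they did not overlap for 3 of 10 (*Myh4*, *Actn3* and *Myl1*, all lower), beside 37.7% of all genes in either direction and 17.3% lower.

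**Figure D3:**
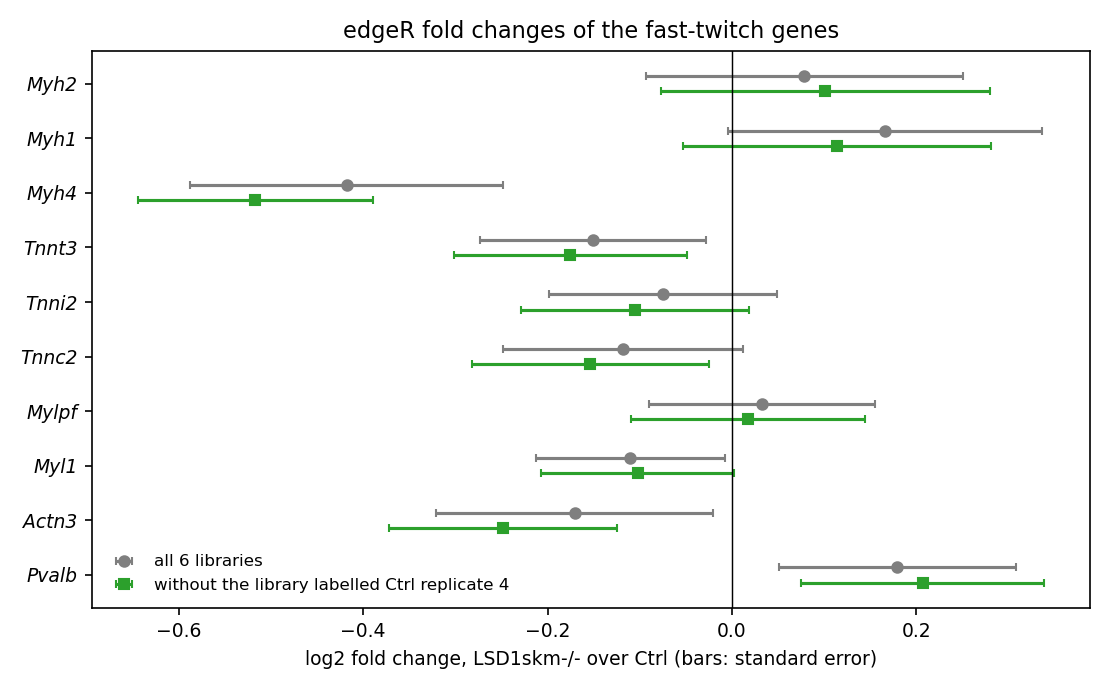
log2 fold change of LSD1skm-/- over Ctrl for each fast-twitch gene from edgeR, with bars of 1 standard error; circles are the fit of all 6 libraries and squares the fit without the library labelled Ctrl replicate 4. *Myh4* lies farthest from 0 (-0.42 and -0.52), and the other genes lie between -0.25 and 0.21.

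The 10 genes together took 14.5%, 14.1%, 14.8% and 13.6% of all counts in the Ctrl libraries and 12.9% and 13.2% in the LSD1skm-/- libraries. Both LSD1skm-/- libraries were below every Ctrl library, by 1.23 percentage points on average (exact permutation p = 0.0667, the smallest the design allows). *Myh4* alone took 4.15% to 5.44% of all counts in Ctrl and 3.51% and 4.12% in LSD1skm-/- libraries. It was the only member whose own share of all counts did not overlap between the groups. A total without *Myh4* was not taken, so the lower total does not tell whether the fast genes fell as a set.

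The slow genes of the same families give the other side of the fast to slow balance. *Myh7*, the slow heavy chain, was at 247, 241, 508 and 221 CPM in the Ctrl libraries and at 35.2 and 86.3 CPM in the LSD1skm-/- libraries. Without the library labelled Ctrl replicate 4 it fell by 2.45 on the log2 scale (SE 0.48, adjusted p = 0.0313, edgeR), and with all libraries the log2 fold change was -2.32 (SE 0.49, adjusted p = 0.557, edgeR). With all libraries *Myh7* passed in DESeq2 (adjusted p = 0.0403) and in edgeR without a filter (adjusted p = 0.000526). It did not pass in edgeR with the other scalings, robust dispersion or at least 50 counts in every library (adjusted p from 0.547 to 0.653). The edgeR fit with the replicate block gave an adjusted p of 5.84e-05. That fit uses numbers shared only by name and leaves 1 residual degree of freedom, so it adds no support. Of the 7 slow paralogs, 5 had an unadjusted p under 0.05 with all libraries, all lower (*Myh7*, *Tnnt1*, *Tnni1*, *Tnnc1* and *Myl2*), beside 8.9% of all genes in either direction and 3.88% lower. Their log2 fold changes were -2.32, -1.52, -1.53, -2.07 and -0.93, in that order. Without LSD1skm-/- replicate 1 these were -1.82, -0.93, -0.95, -1.43 and -0.52, and without LSD1skm-/- replicate 2 they were -3.11, -2.57, -2.54, -3.28 and -1.51. *Myl3* was at -0.34, and *Actn2*, which fast fibers also express, at 0.09.

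Of the 7 fast over slow ratios of reads per kilobase, 5 were higher in both LSD1skm-/- libraries than in every Ctrl library. They were 2.92-fold higher for *Tnnt3*/*Tnnt1*, 3.04-fold for *Tnni2*/*Tnni1*, 4.52-fold for *Tnnc2*/*Tnnc1*, 2.01-fold for *Mylpf*/*Myl2* and 4.05-fold for the summed fast heavy chains over *Myh7*. Each had an exact permutation p of 0.0667, the smallest possible, and 0.0933 after adjustment over the 7 ratios. *Myl1*/*Myl3* was 1.16-fold higher (exact permutation p = 0.733) and *Actn3*/*Actn2* was at 0.84 times the Ctrl ratio (exact permutation p = 0.267), both with overlapping groups. Without the library labelled Ctrl replicate 4, *Actn3*/*Actn2* was at 0.77 times the Ctrl ratio, lower without overlap (exact permutation p = 0.2). The 5 higher ratios stayed without overlap there, with an exact permutation p of 0.2 for *Mylpf*/*Myl2* and 0.1 for the others. LSD1skm-/- replicate 1 had the highest ratio in all 5. On the log2 scale the 5 differences were 1.55, 1.60, 2.18, 1.01 and 2.02, in the order given. Without LSD1skm-/- replicate 1 they were 0.78, 0.91, 1.38, 0.66 and 1.3, and without LSD1skm-/- replicate 2 they were 2.31, 2.29, 2.97, 1.35 and 2.74.

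**Figure D4:**
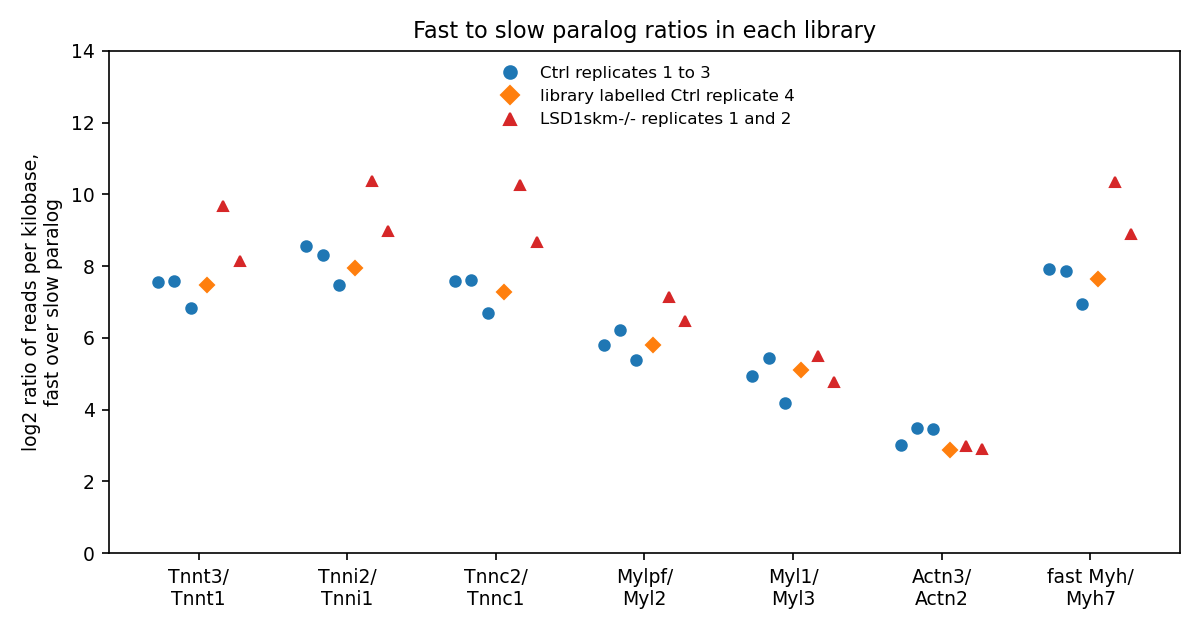
log2 ratio of reads per kilobase of each fast gene, or of the summed fast heavy chains, over its slow paralog in each library; circles are Ctrl replicates 1 to 3, the diamond is the library labelled Ctrl replicate 4 and triangles are the LSD1skm-/- libraries. The triangles lie above all Ctrl points in 5 of the 7 ratios, by 1.01 to 2.18 on the log2 scale on average, and overlap with them for *Myl1*/*Myl3* and *Actn3*/*Actn2*.

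A further list held 20 genes of contraction and calcium handling, not all particular to fast fibers, and all were tested. It included *Myh8* and *Myh13*, chains of development and of eye muscles, and *Neb*, also used here as a general myofiber marker. The 6 general myofiber markers had a like median of -0.13, with 4 lower and 2 higher, in the edgeR fit of all libraries. With all libraries 17 were lower and 3 higher, with a median of -0.14, and 2 had an unadjusted p under 0.05, both lower, beside 8.9% of all genes in either direction and 3.88% lower. In the fit of 5 libraries, which omits the one labelled Ctrl replicate 4, 19 were lower (median -0.17) and 2 fell past the adjusted threshold, beside 1.02% of all genes. *Mylk2* encodes the skeletal muscle kinase that phosphorylates the regulatory light chain. It was at 1010.2, 1172, 1185 and 481 CPM in the Ctrl libraries and at 503 and 438 CPM in the LSD1skm-/- libraries, so that the library labelled Ctrl replicate 4 lay with the LSD1skm-/- libraries. Its log2 fold change was -1.03 (SE 0.35, adjusted p = 0.557, edgeR) with all libraries and -1.25 (SE 0.13, adjusted p = 0.00321, edgeR) without that library. The second p-value is a description, since the library left out was set apart for its likeness to the LSD1skm-/- libraries.

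*Cacng1*, a subunit of the calcium channel of the muscle membrane, was at 226, 225, 282 and 142 CPM in the Ctrl libraries and at 122 and 130.5 CPM in the LSD1skm-/- libraries. Both LSD1skm-/- values lay below every Ctrl value, and the library labelled Ctrl replicate 4 was the lowest of Ctrl. The log2 fold change was -0.79 (SE 0.25, adjusted p = 0.557, edgeR) and, without that library, -0.95 (SE 0.13, adjusted p = 0.00928, edgeR). The largest positive values of the list were those of *Atp2a1*, the calcium pump of fast fibers, at 0.011, and *Sypl2*, a protein of the triad junction, at 0.0051. The sign of *Sypl2* turned under DESeq2 and upper-quartile scaling.

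Of 27 regulators linked to fiber type, 16 were lower and 11 higher with all libraries (median -0.07, and -0.24 without LSD1skm-/- replicate 1). Their mean log2 CPM was 5.56 in LSD1skm-/- replicate 1, inside the Ctrl range of 5.35 to 5.63, and 5.34 in LSD1skm-/- replicate 2. With all libraries 4 of the regulators had an unadjusted p under 0.05, all lower, beside 8.9% of all genes in either direction and 3.88% lower. These were *Eya1* (-0.44) and *Eya4* (-0.61), transcriptional coactivators, the transcription factor *Tead1* (-0.36) and the deacetylase *Hdac5* (-0.29). Without the library labelled Ctrl replicate 4, 8 were under that threshold, all lower, beside 20.2% of all genes in either direction and 7.72% lower. There *Eya1* and *Eya4* fell past the adjusted threshold (adjusted p = 0.0418 and 0.0499, edgeR), beside 5.39% of all genes in either direction and 1.02% lower. *Eya1* was at 29.6, 32.4, 29.6 and 24.9 CPM in the Ctrl libraries and at 22.5 and 20.4 CPM in the LSD1skm-/- libraries. *Eya4* was at 60.5, 69.1, 69.5 and 52.2 CPM against 47.7 and 34.8 CPM. For both genes the groups did not overlap, and the library labelled Ctrl replicate 4 was the lowest of Ctrl. The other genes under the unadjusted threshold without that library were *Mef2c* (-0.48), *Nfatc1* (-0.32), a calcineurin target factor, *Sox6* (-0.42), a repressor of slow genes in fast fibers, and *Tbx15* (-0.29). *Ppargc1a*, a coactivator of oxidative genes, had the largest positive value (0.39, SE 0.35) and *Nfatc4* the second largest negative value (-0.46, SE 0.32), and neither was under the unadjusted threshold.

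Other genes of the heavy chain stretch were listed by position after the data had been seen. The noncoding *2310065F04Rik* lies between *Myh3* and *Myh2* on the minus strand (67112461 to 67120080). It was at 104, 124, 108 and 107 CPM in the Ctrl libraries and at 138 and 172 CPM in the LSD1skm-/- libraries, without overlap. Its log2 fold change was 0.49 (SE 0.13, unadjusted p = 0.00501, adjusted p = 0.557, edgeR), and 0.48 without the library labelled Ctrl replicate 4 (adjusted p = 0.0902, edgeR). *Myhas*, an antisense gene on the minus strand (67211256 to 67237573), overlaps *Myh1*, and its coordinates lie below those of *Myh4*. It was at 35.3 to 46.4 CPM in Ctrl and at 39.9 and 40.1 CPM in LSD1skm-/- muscle (-0.0035, SE 0.13). The sign of *Myhas* turned with library-size scaling. The heavy chains of early development, *Myh3* (-0.48, SE 0.23) and *Myh8* (-0.13, SE 0.19), and *Myh13* (-0.24, SE 0.34), a chain of eye muscles, had adjusted p-values from 0.566 to 0.831 (edgeR). *Myh3* stood at 4.32 to 8.62 CPM over all libraries, far below the adult chains.

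**Figure D5:**
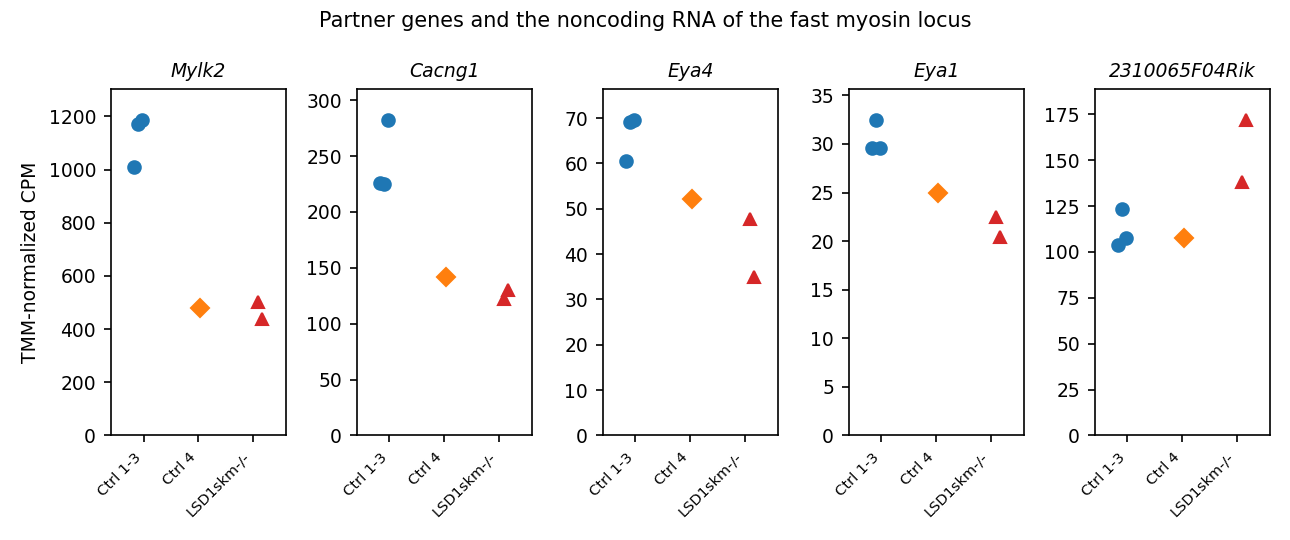
TMM-scaled CPM in each library for *Mylk2*, *Cacng1*, *Eya4*, *Eya1* and *2310065F04Rik*, each on its own axis from 0; circles are Ctrl replicates 1 to 3, the diamond is the library labelled Ctrl replicate 4 and triangles are the LSD1skm-/- libraries. *Mylk2* is at 1010.2 to 1185 CPM in Ctrl replicates 1 to 3 and at 438 to 503 CPM in the other 3 libraries.

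The genes whose levels followed the heavy chains most closely were sought as those with the smallest root mean square difference of centred log2 CPM over the 6 libraries, of which the differences between groups are part. For *Myh4* they were *Usp13* (0.035), *Gyg* (0.050), *Odr4* (0.051), *Eprs* (0.055) and *Mtmr1* (0.055), where *Myh4* itself spanned 0.70 on the log2 scale. For *Myh1*, which spanned 0.54, they were *Lsm3* (0.057), *Fbxo6*, *Rpl14-ps1*, *mt-Nd1* and *Slc39a14* (0.083). For *Myh2*, which spanned 0.55, they were *Pfkfb1* (0.048), *Llph*, *Tmem50a*, *Coa4* and *Gpt* (0.059). No gene was near more than 1 of the 3.

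The myofiber markers (*Ckm*, *Acta1*, *Mb*, *Neb*, *Ttn* and *Des*) were all present, summing to 81965 to 91393 CPM in Ctrl and 80497.5 to 84983 CPM in LSD1skm-/- libraries. Markers of other cells moved beside the results above. The 5 blood markers summed to 28.1 to 52.1 CPM in Ctrl and 64.0 and 65.7 CPM in LSD1skm-/- libraries, with 5 of 5 higher. The 6 fibroblast markers summed to 404 to 614 CPM and 564 to 663 CPM, with 6 of 6 higher. For these sums the groups overlapped only through the library labelled Ctrl replicate 4, since Ctrl replicates 1 to 3 were at 404 to 435 CPM.

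The 6 endothelial markers summed to 189 to 245 CPM in Ctrl and 161 to 167 CPM in LSD1skm-/- libraries, with 5 of 6 lower. The 6 adipocyte markers summed to 171 to 486 CPM and 166 to 177 CPM, and 5 of the 5 tested were lower. *Adipoq*, the adipocyte hormone, was at 0.78 to 19.5 CPM in Ctrl and at 0.13 and 0.56 CPM in LSD1skm-/- libraries. In the library labelled Ctrl replicate 4 the blood, fibroblast, endothelial, adipocyte, tendon, Schwann cell and satellite cell sums were the highest of Ctrl. Immune markers (49.4 to 141 CPM against 78.0 to 117 CPM) and Schwann cell markers (46.7 to 164 against 56.7 to 95.1) overlapped between the groups. Tendon markers (44.4 to 72.1 against 68.9 to 69.7) and satellite cell markers (4.53 to 10.5 against 7.50 to 10.2) overlapped only through that library. Ctrl replicates 1 to 3 were at 44.4 to 52.7 CPM for tendon and 4.53 to 6.22 CPM for satellite cell markers. No marker was at 0 in all libraries, and the part of these cells in the results was not tested.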

How the data were processed

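Poly(A) RNA of mouse muscle was sequenced from a stranded kit. The authors reported single-end reads of 50 bases mapped to mm10, of which uniquely aligned reads were counted per gene. The aligner is not given in the sources used here, and the submitters' processing notes name bcl2fastq 2.20.0.422. The deposited values are whole-number counts, not normalized, from which the authors' comparisons used DESeq2.

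Genes with a mean count above 50 over 6 libraries were compared with edgeR 4.0.16 in R 4.3.3 (TMM scaling, quasi-likelihood test, condition only, Benjamini-Hochberg over 11364 genes). CPM used a prior count of 2 on the log scale. DESeq2 1.42.0, other scalings, other filters, the replicate number as a block and leaving out each library were alternatives. Ratios and shares were tested by exact two-sided permutation over libraries. Lengths, positions and shared 50-base stretches came from GENCODE vM21 (GRCm38). The fits were also run on simulated counts, with the same dispersion for every gene and no library unlike its group. That run cannot tell how the fits fare with such a library. Counting error is small at 30654828 to 41278769 counts per library, and the 2 LSD1skm-/- libraries limit the precision. Of the rows, 29 shared a symbol with another and were tested singly.

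Genes other than the 10 were named if their unadjusted p was under 0.05 in the fit of all libraries or in that without Ctrl replicate 4, or if they had the 2 largest rises or falls of their list. Slow paralogs and the 5 nearest genes of each heavy chain were named too. One gene that met the rule is not reported here. The members and lists were chosen with earlier results of these data known.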

Additional observations from a re-analysis of the deposited data

Results flagged for a closer look

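In Ctrl, the gap between the most extreme library and its nearest neighbour was set against the range of the 4 libraries for 52 values. In 5 it exceeded Dixon's 95% critical value, where chance gives about 1 in 20. For *Myh1* the quotient was 0.90, with Ctrl replicate 1 high. For *Myl1* it was 0.83, with Ctrl replicate 3 low. Ctrl replicate 3 also stood apart for *Myh7* (0.87, high) and for the ratio of *Tnnt3* to *Tnnt1* (0.86, low). For *Kdm1a* it was 0.88, with the library labelled Ctrl replicate 4 low.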

How the results depend on the processing

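Leaving out 1 library at a time moved the number of genes with an unadjusted p under 0.05 between 391 and 2292 (main value 1011) and with an adjusted p under 0.05 between 0 and 612 (main value 0). The highest values came without the library labelled Ctrl replicate 4. Without a filter the numbers were 2189 and 149, with the replicate number as a block 1677 and 632, and DESeq2 called 46 after adjustment. DESeq2 without the library labelled Ctrl replicate 4 called 1056. *Myh4* without that library passed with DESeq2 (-0.53) and with robust dispersion (-0.52).

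No member passed an adjusted threshold under any alternative with all 6 libraries, and the sign of *Myh4*, *Myh1*, *Actn3*, *Tnnt3* and *Myl1* was kept throughout. Leaving out 1 library gave ranges that cross 0 for *Myh2* (-0.084 to 0.22), *Tnni2* (-0.19 to 0.024), *Tnnc2* (-0.26 to 0.0044), *Mylpf* (-0.13 to 0.17) and *Pvalb* (-0.0026 to 0.34), and likewise for *Atp2a1* (-0.022 to 0.078), *Sypl2* (-0.055 to 0.058), *Ppargc1a* (-0.42 to 0.91), *Myhas* (-0.061 to 0.074) and *Myh8* (-0.39 to 0.075). The log2 ratio of *Myh2* to *Myh1* ran from -0.24 to 0.046 and that of *Myl1* to *Myl3* from -0.14 to 0.56. Without a filter *Atp2a1* was at -0.0035 and *Sypl2* at -0.0082. *Sypl2* was at -0.0025 with DESeq2 and with its size factors and at -0.0010 with upper-quartile scaling, and *Myhas* was at 0.035 with library-size scaling.

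The replicate numbers are shared only by name. Deviations of same-numbered libraries had a correlation over genes of -0.23 for number 1 and -0.033 for number 2. With 2 LSD1skm-/- libraries the deviations of one mirror those of the other, so these values cannot decide whether the numbers pair libraries. The block fit leaves 1 residual degree of freedom. With the replicate block *Myhas* was at 0.074, *Myh2*/*Myh1* at 0.043 and *Myl1*/*Myl3* at -0.054. The cause of these changes was not tested. Comparisons with LSD1skm-/- replicates 3 and 4 were not run.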

Other observations

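The general myofiber genes showed no common direction. *Ckm*, the muscle creatine kinase, was at 28477 ± 1452 CPM (SD, n = 4) in Ctrl and 30465 ± 1856 CPM (SD, n = 2) in LSD1skm-/- muscle, and *Acta1*, skeletal actin, at 34435 ± 2123 and 33808 ± 3843 CPM. *Ttn*, the giant spring protein of the sarcomere, was at 10020.4, 10805, 11377 and 10728 CPM in the Ctrl libraries and at 9668 and 6773 CPM in the LSD1skm-/- libraries, where the groups did not overlap.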
